A study of Homo sapiens with 24 samples.

Results

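Mitochondrial ribosomes are assembled from RNAs of the mitochondrial genome and from proteins that are encoded in the nucleus, translated in the cytoplasm and imported. Their large and small subunits make the few respiratory chain proteins that the mitochondrial genome encodes. The mRNAs described here are those of the genes named MRPL (large subunit) or MRPS (small subunit) followed by a number and, in some, the letter A, B or C. This rule on the symbol found 78 of 60308 genes in the exon count table, 49 MRPL and 29 MRPS genes on 21 chromosomes. The symbols follow the history of the proteins, and whether each member encodes a protein of the ribosome was not tested. Of the MRPS genes, MRPS18A and MRPS30 are known to encode proteins of the large subunit.

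The samples were U2OS cells, a human osteosarcoma line, taken as a model of the cytoplasmic granules that form when translation is blocked by stress. Ctrl cells were given 0.12% DMSO for 2 h. NaAsO2 cells were exposed for 60 min to 500 µM sodium arsenite, which causes oxidative stress and stress granules (SGs). RK-33 cells were pre-treated for 1 h with 6 µM RK-33, an inhibitor of the ATPase of the RNA helicase DDX3. Combo cells had RK-33 first and then NaAsO2 at the same doses. Each treatment had 3 replicates, and each lysate, freed of nuclei, was split by a fast spin into a soluble and an insoluble cytoplasmic fraction, which gave 24 libraries in 8 groups. Libraries of the same treatment and replicate number are taken here as the 2 fractions of 1 lysate, as the study pairs its fractions, though the labels do not tie the number to a lysate. The insoluble fraction is enriched for SGs and P-bodies, and other dense material would pellet with it. By the study's methods, the sequencing experiment on both fractions was done 3 times under every condition. The labels do not say whether the replicates were separate cultures, so that p-values measure the spread between these samples.

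The exon counts of a library summed to between 8627294 and 15376554, of which 11724 to 43541 fell on the members. VIM, SPARC, COL1A1, CDH2 and RUNX2, markers of the mesenchymal lineage of the line, had mean levels of 65.1 to 1494 CPM (counts scaled to a common library total), whereas TWIST1 stood at 0.0251 CPM. Of the markers of other lineages, PTPRC, ALB, RBFOX3, EPCAM and CDH1 were at 0.0430 to 5.03 CPM, but the keratin KRT8 was at 247 CPM. HMOX1, a target of oxidative stress, had 17.7 ± 2.31 CPM in Ctrl and 65.8 ± 5.28 CPM in NaAsO2 soluble libraries (SD, n = 3). Replicate 3 of the NaAsO2 insoluble fraction stood apart. RN7SL1, a cytoplasmic RNA of the signal recognition particle, held 5.79% of its exon counts, against 0.426% to 1.23% in the other insoluble and 7.51% to 15.5% in the soluble libraries. In that library, 12 members were more than 1 above and 10 more than 1 below the mean of the other two replicates on the log2 scale, whereas in no other library were more than 3 above or 4 below. It also enters the common estimate of the spread, and most of the main counts are given with and without it. The counts lower in the insoluble fraction in RK-33 and Combo and the 2-fold counts outside NaAsO2 are given with all libraries only. So are the counts lower or higher in other gene lists and those after removal of a length trend. The nuclear RNA MALAT1 was at 5992 to 15023 CPM in the soluble and 1315 to 6857 CPM in the insoluble libraries, and NEAT1, also nuclear, was higher in the insoluble ones without overlap (286 to 728 and 811 to 3368 CPM). The part of nuclear RNA in the results was not tested.

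Of the 78 members, 77 had a mean of at least 1 CPM and were tested. MRPL53 (chr2:74471982-74472687, GRCh38, minus strand) had 0 counts in all 24 libraries. Of its exon bases, 99.4% lie within exons of CCDC142 and of an unnamed gene, and reads that fall on more than one gene were not counted. Overlaps with exons of other genes were present in 41 members and covered more than 25% of the exon bases in 13. Besides MRPL53, these were MRPL12 (69.5%), MRPS18A (50.9%), MRPL38 (45.1%), MRPS22 (42.8%), MRPS18C (40.2%), MRPS25 (37.8%), MRPL43 (36.9%), MRPL9 (36.0%), MRPS28 (35.8%), MRPL2 (35.0%), MRPS34 (31.2%) and MRPL51 (27.6%). The levels of these members are uncertain. Annotated pseudogenes existed for 36 members, and held 0.599% as many counts as the members in all, but 26.8% as many as MRPL45 and 20.5% as many as MRPS31, whose levels are uncertain.

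Per length, MRPL14 was the member with the highest level in Ctrl soluble libraries, at 182 ± 16.1 TPM (counts per merged exon length, scaled to the library, SD, n = 3), followed by MRPL51 with 139 ± 10.2 TPM and MRPL41 with 114 ± 4.58 TPM. MRPL14 is a conserved protein of the large subunit, and MRPL51 and MRPL41 are additions of the mitochondrial ribosome. The lowest of the tested members were MRPL46 (1.83 ± 0.199 TPM), MRPS24 (1.84 ± 0.471 TPM) and MRPL38 (2.94 ± 0.690 TPM), of which MRPL46 and MRPS24 did not differ beyond their spread. The order depends on which exons are counted as the gene. With the length of the canonical transcript used for the members alone, MRPL51 came first. MRPS22, whose merged exons are 13.6 times as long as its transcript, moved from place 74 to 44. The scaling to the library still used merged exon lengths, so that only the order of the members is compared.

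The members are spread over the genome but share letters in their promoters. RefSeq promoters (GRCh38.p14, 250 bases before to 50 after the start) were at hand for 69 members. The ETS core CCGGAAG was present on either strand in 43.5% of these, against 10.3% of all 35116 promoters, which include those of non-coding genes. AAGATGGC, the letters of a YY1 motif, was present in 30.4% against 2.89%. The first and the second word can share the letters AAG. CGCATGCG, the core of the NRF1 palindrome, was found in 4.35% against 2.02% and, with a G before and a C after it, in 1.45% against 1.24%, while TATAAA was found in 4.35% against 11.5% and CCAAT in 28.99% against 34.6%. The 150 bases before the annotated start are shown for the members on which the comparisons turn, in the direction of transcription, with ETS, YY1 and NRF1 letters in capitals. MRPL47 holds both the ETS and the YY1 letters, MRPS18A and MRPL18 hold the ETS letters, MRPS18C holds the NRF1 core, and the stretches of MRPS18B and MRPS30 hold none of these. A match is no proof of a site.
MRPL47 promoter, chr3:179604639-179604788, minus strand: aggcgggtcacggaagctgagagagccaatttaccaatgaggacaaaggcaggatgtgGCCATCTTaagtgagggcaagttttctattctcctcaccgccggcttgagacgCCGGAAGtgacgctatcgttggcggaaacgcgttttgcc
MRPS18A promoter, chr6:43687792-43687941, minus strand: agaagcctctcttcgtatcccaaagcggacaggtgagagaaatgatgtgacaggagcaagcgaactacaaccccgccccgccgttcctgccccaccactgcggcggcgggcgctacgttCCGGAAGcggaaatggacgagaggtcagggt
MRPS18B promoter, chr6:30617690-30617839, plus strand: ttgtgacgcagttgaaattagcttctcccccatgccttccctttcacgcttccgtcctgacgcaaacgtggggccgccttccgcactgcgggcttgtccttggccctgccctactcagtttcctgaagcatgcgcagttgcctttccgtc
MRPS18C promoter, chr4:83455908-83456057, plus strand: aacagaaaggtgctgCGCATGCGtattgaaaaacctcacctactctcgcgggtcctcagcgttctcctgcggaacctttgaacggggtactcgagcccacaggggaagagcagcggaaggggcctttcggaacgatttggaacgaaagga
MRPL18 promoter, chr6:159790317-159790466, plus strand: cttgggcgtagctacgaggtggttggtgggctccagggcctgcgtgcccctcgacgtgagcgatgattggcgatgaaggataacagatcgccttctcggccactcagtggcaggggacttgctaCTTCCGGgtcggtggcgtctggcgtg
MRPS30 promoter, chr5:44808797-44808946, plus strand: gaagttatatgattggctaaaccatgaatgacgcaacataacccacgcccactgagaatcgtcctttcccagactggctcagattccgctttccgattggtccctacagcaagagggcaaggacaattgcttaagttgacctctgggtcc

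The first question was how the mRNAs divide between the soluble and the insoluble cytoplasm. In all 12 lysates the members took a smaller share of the insoluble than of the soluble library. In Ctrl, the share of exon counts of the soluble libraries was 0.273%, 0.302% and 0.292%, and that of the insoluble ones 0.147%, 0.156% and 0.132%. The ratio of insoluble to soluble share within a lysate was 0.503 ± 0.0451 in Ctrl, 0.412 ± 0.0119 in NaAsO2, 0.432 ± 0.0278 in RK-33 and 0.445 ± 0.0185 in Combo (SD, n = 3 lysates). The 12 soluble libraries lay between 0.267% and 0.327% and the 12 insoluble ones between 0.115% and 0.156%, without overlap. Shares are relative to the other RNA of a library. From these shares, less of an mRNA and more of other RNA in a fraction cannot be told apart, and neither can fewer cells and less RNA per cell. The study added a spike-in to its libraries and scaled its own comparison of fractions to it, which was not done here.

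**Figure D1:**
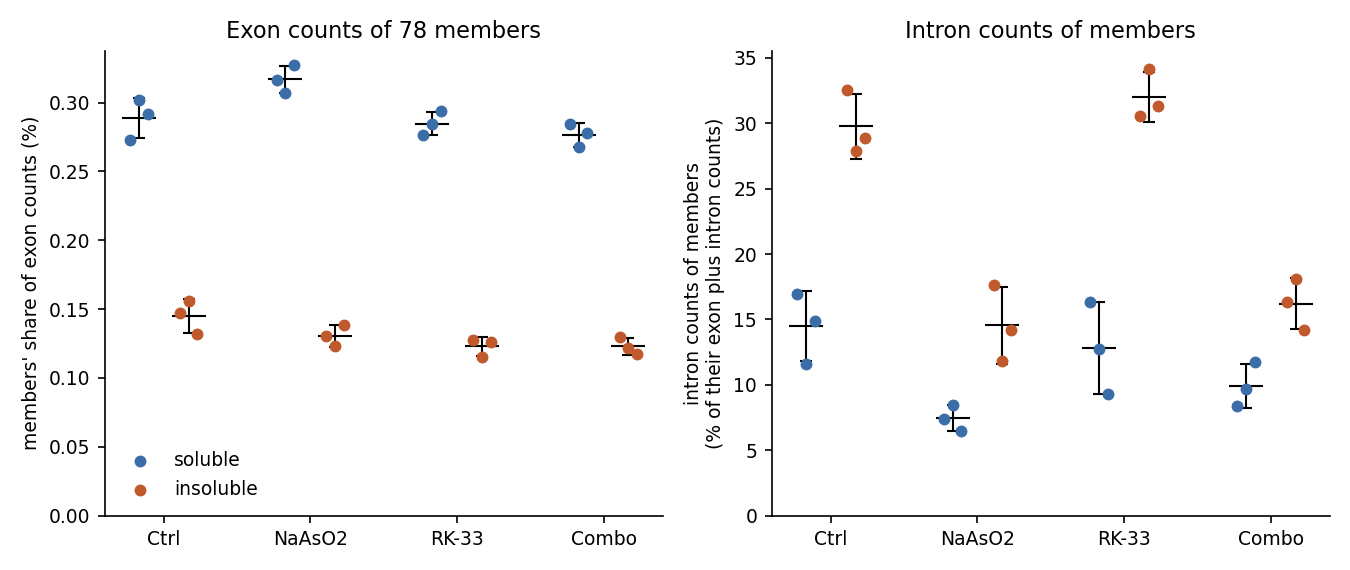
Left, share of exon counts held by the 78 members (%), and right, intron counts of the members as % of their exon plus intron counts, for each library by treatment and fraction (points), with mean and SD (bars, n = 3). The shares of the exon counts do not overlap between fractions, from 0.267% upwards in the soluble and up to 0.156% in the insoluble libraries.

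In Ctrl, 67 of 77 members were lower in the insoluble fraction and 0 were higher (edgeR quasi-likelihood test, adjusted p under 0.05). Over all 17666 genes tested, 26.6% were lower and 24.4% higher. The median log2 fold change, insoluble over soluble, was −0.98 over the members and −0.03 over all genes. For 38 members the difference was at least 2-fold, as it was for 10.7% of all genes in this direction. In 70 members the 3 insoluble libraries were all below the 3 soluble ones, which held for 35.8% of all genes. The MRPL members had a median of −1.12, with 46 of 48 lower, and the MRPS members of −0.87, with 21 of 29 lower. This difference between subunits was not tested.

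MRPL11 (chr11:66435075-66466738), the mitochondrial counterpart of a protein at the base of the ribosomal stalk, had the smallest adjusted p. Its level was 51.0, 56.6 and 49.5 CPM in the Ctrl soluble and 15.91, 17.74 and 16.99 CPM in the Ctrl insoluble libraries. The fractions were far apart, with a log2 fold change of −1.63 (SE 0.14, edgeR adjusted p = 3.09e-09). MRPL18 (chr6:159789812-159798436), of a family known to bind ribosomal RNA, had the largest difference among members with a mean of at least 10 CPM. It was at 49.4, 66.6 and 48.2 CPM in the soluble and 18.6, 18.3 and 13.6 CPM in the insoluble libraries, a log2 fold change of −1.70 (SE 0.20, edgeR adjusted p = 3.51e-07). MRPL43 (−1.30), MRPL33 (−1.16) and MRPL57 (−1.55), all of the large subunit, also were lower in the insoluble fraction.

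At the other end, among members with a mean of at least 10 CPM, stood MRPS30, MRPS27 and MRPS5. MRPS30 (chr5:44808947-44820428) had 40.8, 42.5 and 42.8 CPM in the soluble and 37.2, 41.6 and 39.0 CPM in the insoluble libraries of Ctrl, which overlap, and its log2 fold change of −0.10 did not pass the test (SE 0.13, edgeR adjusted p = 0.556). MRPS27, a pentatricopeptide repeat protein of the small subunit, had a log2 fold change of −0.12 (edgeR adjusted p = 0.394), and MRPS5 one of −0.22 (edgeR adjusted p = 0.103). The 10 members that did not pass in Ctrl were these and MRPL38, MRPL46, MRPS24, MRPS25, MRPS34, MRPS6 and MRPS9. Without replicate 3 of the NaAsO2 insoluble fraction, which enters the common estimate of the spread, 71 members were lower in Ctrl, with 34.2% of all genes.

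After NaAsO2, 69 of 77 members were lower in the insoluble fraction and 0 higher, with 29.7% lower and 27.9% higher among all genes. The median was −1.45, and 58 members were lower by at least 2-fold, against 16% of all genes (66 and 16.4% without replicate 3 of the insoluble fraction). MRPL47 (chr3:179588285-179604649), a large subunit protein near the exit of the peptide tunnel, had the smallest adjusted p. It was at 47.2, 43.0 and 44.1 CPM in the soluble and 9.89, 8.78 and 8.54 CPM in the insoluble libraries, a log2 fold change of −2.30 (SE 0.13, edgeR adjusted p = 3.76e-12). MRPS15 (−2.32), MRPL13 (−2.11), MRPL9 (−2.10) and MRPS18B (−2.07) were lower to a similar extent.

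Of the 8 members that did not pass in NaAsO2, MRPL20, MRPL30, MRPL38, MRPL41, MRPL46, MRPS26 and MRPS34 were among the 12 that stood more than 1 higher in that replicate 3, and the remaining one was MRPL44. MRPL30 (chr2:99181152-99199561) was at 13.5 and 12.4 CPM in replicates 1 and 2 and at 65.5 CPM in replicate 3 of this fraction, against 38.8, 39.9 and 47.3 CPM in the soluble fraction. MRPL41 (chr9:137551879-137552555) was at 12.9, 15.2 and 68.0 CPM in the insoluble and 47.1, 45.7 and 53.2 CPM in the soluble libraries. MRPS26 (chr20:3046052-3048250) was at 17.6, 16.4 and 55.5 CPM in the insoluble and 23.37, 26.72 and 25.98 CPM in the soluble libraries. In each of the 3 genes, replicate 3 was above and replicates 1 and 2 were below all soluble libraries. With that library MRPL30 had a log2 fold change of −0.50 (edgeR adjusted p = 0.252), and without it one of −1.66 (edgeR adjusted p = 1.28e-11). MRPL41 moved from −0.63 to −1.75, and MRPS26 from 0.21 to −0.55 (edgeR adjusted p = 0.572 and 0.00769). Without the library, 77 of 77 members were lower, with a median of −1.52 and 32.4% of all genes lower. The deviation of replicate 3 from the other two replicates had a Pearson correlation of 0.57 with the GC content of the transcript over 77 members and of 0.70 over 13441 protein-coding genes. These points come from the same libraries, and the part of GC content in the result was not tested.

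**Figure D2:**
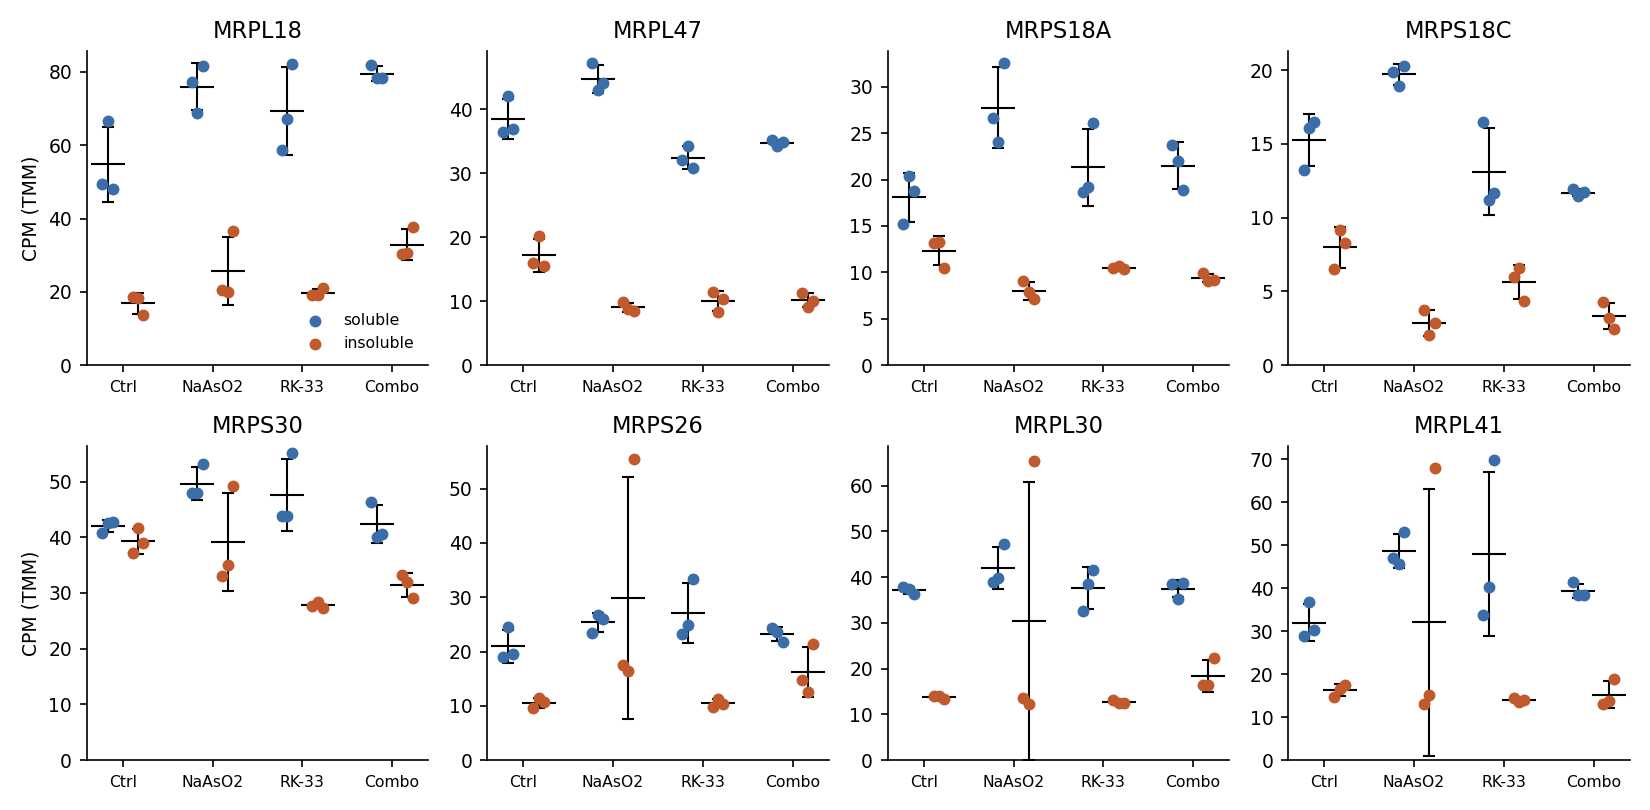
Level in CPM (TMM-scaled) of 8 members in each library (points) with mean and SD (bars, n = 3, cut at 0) by treatment and fraction. MRPL47, MRPS18A and MRPS18C have their lowest mean insoluble level in NaAsO2, and in MRPS26, MRPL30 and MRPL41 replicate 3 of the NaAsO2 insoluble fraction (55.5, 65.5 and 68.0 CPM) stands above the other insoluble libraries.

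With RK-33 alone, 72 of 77 members were lower in the insoluble fraction and 0 higher, with 30.4% lower and 29.2% higher among all genes. The median was −1.44 and 60 members were lower by at least 2-fold, against 15.2% of all genes. MRPL11 again had the smallest adjusted p, with 48.8, 51.9 and 64.8 CPM in the soluble and 15.6, 12.7 and 14.4 CPM in the insoluble libraries (log2 fold change −1.95, SE 0.14, edgeR adjusted p = 1.87e-10). The largest differences were those of MRPL54 (−2.18), MRPL51 (−2.15) and MRPL40 (−1.96). The members that did not pass were MRPS27 (−0.15), MRPS25 (−0.27), MRPL3 (−0.30), MRPL38 (−0.34) and MRPL46 (−0.83).

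In Combo, 74 of 77 members were lower and 0 higher, with 28% lower and 24.1% higher among all genes. The median was −1.26 and 59 members were lower by at least 2-fold, against 13.1% of all genes. The smallest adjusted p was that of MRPL43, which was at 44.2, 43.6 and 40.4 CPM in the soluble and 14.9, 13.2 and 13.2 CPM in the insoluble libraries (log2 fold change −1.63, SE 0.12, edgeR adjusted p = 2.90e-10). Among members with a mean of at least 10 CPM, MRPL57 (−1.81), MRPL47 (−1.77) and MRPS15 (−1.77) had the largest differences. MRPS30 was lower here (−0.43, edgeR adjusted p = 0.00788) as well as in RK-33 (−0.77, edgeR adjusted p = 3.35e-05) and NaAsO2 (−0.35, edgeR adjusted p = 0.0259). MRPL19 (−0.09), MRPS26 (−0.52) and MRPL38 (−0.67) did not pass.

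Over the 4 treatments, 60 members were lower in the insoluble fraction in every one, 17 missed the threshold in at least one, and MRPL38 missed it in all. Of all genes, 26.6%, 29.7%, 30.4% and 28% were lower in Ctrl, NaAsO2, RK-33 and Combo taken singly. The share of all genes lower in all 4 is not given here, so that the 60 cannot be set against it. MRPL38, of the central protuberance of the large subunit, had 21 to 61 counts in a library, and 45.1% of its exon bases overlap other genes. Per lysate, the median log2 ratio of the members was −0.95, −1.05 and −1.03 in Ctrl, −1.51, −1.57 and −1.33 in NaAsO2, −1.21, −1.36 and −1.56 in RK-33 and −1.30, −1.28 and −1.25 in Combo.

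**Figure D3:**
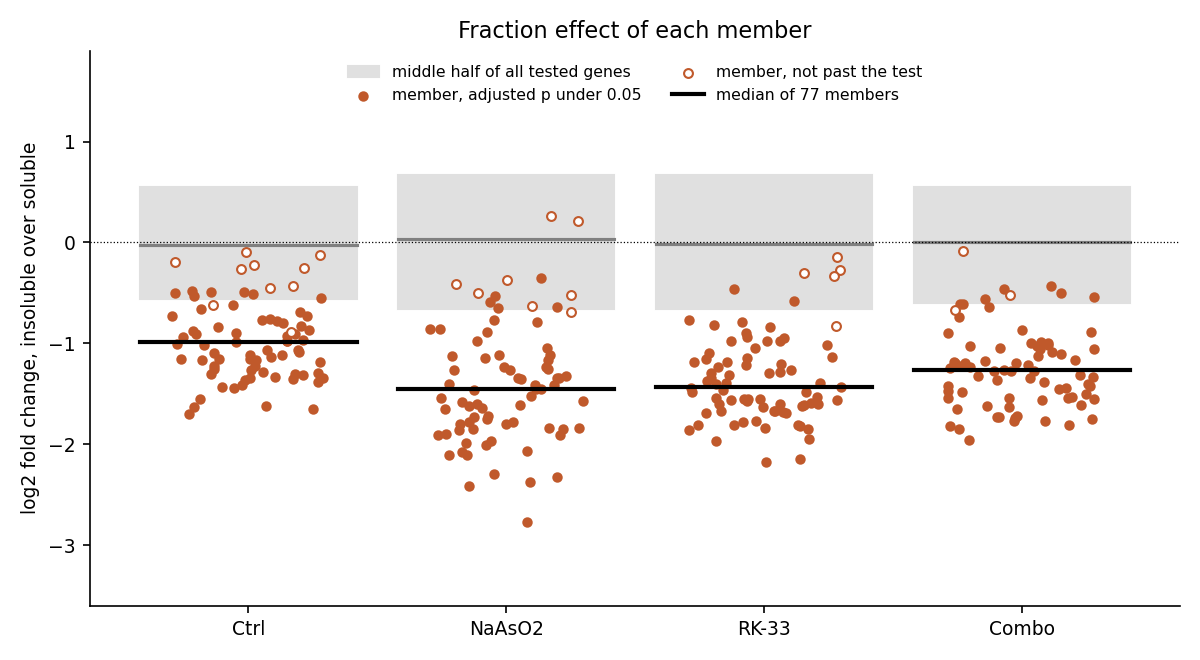
Log2 fold change, insoluble over soluble, of each of 77 tested members by treatment (points; filled, adjusted p under 0.05), with the median of the members (thick line) and the interquartile range and median of all tested genes (grey). The medians of the members are −0.98, −1.45, −1.44 and −1.26, below the interquartile range of all genes.

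The second question was whether the division between fractions differed between treatments. The difference of the fraction effects was tested for each gene as an interaction, in the same fit. For NaAsO2 against Ctrl, 24 of 77 members had a more negative fraction effect after NaAsO2 and 0 a less negative one, against 11.4% and 11% of all genes. The median difference was −0.50 over the members and −0.02 over all genes. Of the 24, 15 were MRPL and 9 MRPS genes. They were MRPL1, MRPL4, MRPL9, MRPL13, MRPL21, MRPL22, MRPL28, MRPL32, MRPL33, MRPL39, MRPL42, MRPL45, MRPL47, MRPL48, MRPL58, MRPS5, MRPS6, MRPS9, MRPS15, MRPS18A, MRPS18B, MRPS18C, MRPS22 and MRPS31. They include proteins kept from the bacterial ribosome, such as MRPL1, MRPL4, MRPL9 and MRPS15, and additions of mitochondria such as MRPL39, MRPS22 and MRPS31, as well as MRPL58, a peptidyl-tRNA hydrolase. Without replicate 3 of the NaAsO2 insoluble fraction, 35 members passed, of which 23 were among the 24, with a median of −0.49 and 13% of all genes.

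MRPL47 had the smallest adjusted p. Its insoluble level was 15.9, 20.2 and 15.5 CPM in Ctrl and 9.89, 8.78 and 8.54 CPM in NaAsO2, while the soluble level was 36.4, 42.1 and 36.9 CPM and 47.2, 43.0 and 44.1 CPM. All soluble values in NaAsO2 were above and all insoluble ones below those in Ctrl. The fraction effects differed by −1.14 on the log2 scale (SE 0.18, edgeR adjusted p = 0.000138). MRPS22 had a difference of −1.15 (edgeR adjusted p = 0.000878), MRPL39 of −1.20 (edgeR adjusted p = 0.00174) and MRPL1, of the mobile stalk at the side of the large subunit, of −1.16 (edgeR adjusted p = 0.00252). Of these, MRPL39 and MRPL1 were at 5.46 and 3.79 CPM in NaAsO2 insoluble replicate 3, the lowest of the 3 replicates, and without it their differences were −0.88 and −0.89.

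The 3 paralogs of one bacterial small subunit protein, MRPS18A, MRPS18B and MRPS18C, were all among the 24. In the ribosome they sit at different places, MRPS18A in the large and the other two in the small subunit. MRPS18A (chr6:43671202-43687791, minus strand) was at 15.2, 20.3 and 18.7 CPM in the Ctrl soluble and 13.2, 13.3 and 10.5 CPM in the Ctrl insoluble libraries, and at 26.65, 24.03 and 32.59 CPM and 9.04, 7.93 and 7.12 CPM in NaAsO2. Its fraction effect was −0.55 in Ctrl, −1.78 in NaAsO2, −1.02 in RK-33 and −1.20 in Combo. MRPS18B (chr6:30617840-30626395, plus strand), the most abundant of the 3 in CPM, had fraction effects of −1.23, −2.07, −1.62 and −1.65 in the same order.

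MRPS18C (chr4:83455932-83469735, plus strand) was at 6.49, 9.17 and 8.30 CPM in the Ctrl insoluble and 3.77, 2.04 and 2.85 CPM in the NaAsO2 insoluble libraries, and at 13.2, 16.1 and 16.5 CPM and 19.9, 18.9 and 20.3 CPM in the soluble ones. Its fraction effect was −0.93 in Ctrl, −2.77 in NaAsO2, −1.21 in RK-33 and −1.82 in Combo. The value in NaAsO2 is the lowest of all members in any treatment. The interaction of NaAsO2 with fraction was −1.23 for MRPS18A (SE 0.23, edgeR adjusted p = 0.000528), −0.84 for MRPS18B (SE 0.18, edgeR adjusted p = 0.00195) and −1.84 for MRPS18C (SE 0.31, edgeR adjusted p = 0.000184). MRPS18C had between 24 and 221 counts in a library, and whether the 3 paralogs differed from each other was not tested.

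**Figure D4:**
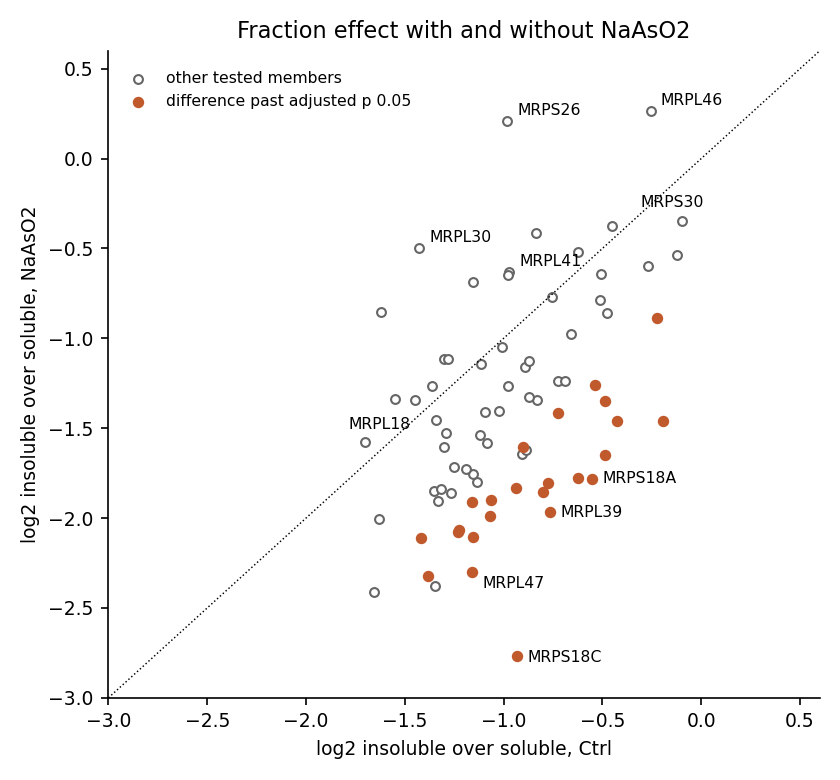
Log2 fold change, insoluble over soluble, of 77 members in Ctrl (horizontal) and in NaAsO2 (vertical), with the line of equal values (dotted). The 24 members whose difference passed adjusted p 0.05 (filled) lie below the line, MRPS18C lowest at −2.77, and MRPS26 and MRPL30, above the line, are among those high in NaAsO2 insoluble replicate 3.

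Of the members with a mean of at least 10 CPM, the highest differences were those of MRPS26 (1.19, edgeR adjusted p = 0.0546), MRPL30 (0.93, edgeR adjusted p = 0.209) and MRPL20 (0.47, edgeR adjusted p = 0.522), none of which passed. These values were, with replicate 3 of the NaAsO2 insoluble fraction left out, 0.49, −0.19 and −0.41, and MRPL41, with it at 0.34, was at −0.73 and passed (edgeR adjusted p = 0.0419).

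For RK-33 against Ctrl, the fraction effect was more negative in 1 member and less negative in 0, against 1.58% and 0.606% of all genes. The member was MRPL28, a large subunit protein kept from bacteria, with a difference of −0.99 (SE 0.25, edgeR adjusted p = 0.0415). Its levels were 31.5, 48.9 and 33.8 CPM in the soluble and 23.9, 31.5 and 25.9 CPM in the insoluble libraries of Ctrl, and 41.3, 43.6 and 54.5 CPM and 18.1, 15.7 and 16.1 CPM in RK-33. The insoluble levels in RK-33 were all below those in Ctrl, and the soluble levels overlapped. The median difference over the members was −0.40, and also −0.40 relative to the median of all genes. Of 77 members, 71 were negative, for which the share of all genes is not given here. Without replicate 3 of the NaAsO2 insoluble fraction, 14 members passed, against 6.1% of all genes.

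For Combo against NaAsO2, 0 members passed in either direction in edgeR's quasi-likelihood test, against 0.221% more negative and 0.136% less negative among all genes, and 14 members had an unadjusted p under 0.05, as had 13.1% of all genes. With glmLRT and with DESeq2 the count was also 0. The median difference was 0.22. MRPL39 had the highest value among members with a mean of at least 10 CPM (0.70, SE 0.26, edgeR adjusted p = 0.246), followed by MRPS18A (0.59) and MRPL48 (0.58). The order rests on replicate 3 of the NaAsO2 insoluble fraction, without which these were 0.37, 0.43 and 0.35 and MRPL30 and MRPL41, at −0.53 and −0.73 with it, were at 0.59 and 0.34 (edgeR adjusted p = 0.0896 and 0.640). The count of members that passed was 0 without the library as well, with a median of 0.24. Both comparisons with NaAsO2 use the same NaAsO2 libraries, and both comparisons with Ctrl the same Ctrl libraries.

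The treatments were then compared within each fraction. In the soluble fraction, 8 members were higher after NaAsO2 than in Ctrl and 0 lower, against 6.31% and 7% of all genes, and the median was 0.34. The 8 were MRPL4, MRPL9, MRPL11, MRPL28, MRPL34, MRPL58, MRPS18A and MRPS18B. MRPL9 was at 23.5, 27.9 and 25.4 CPM in Ctrl and 35.5, 38.5 and 36.5 CPM in NaAsO2, without overlap (log2 fold change 0.53, SE 0.13, edgeR adjusted p = 0.00854). MRPS18A rose by 0.62 and MRPL28 by 0.64. When replicate 3 of the NaAsO2 insoluble fraction was left out, 34 members were higher, with 15.3% of all genes, and without replicate 1 of the Ctrl soluble or replicate 3 of the NaAsO2 soluble fraction there were 0.

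In the insoluble fraction, 21 members were lower and 8 higher after NaAsO2, against 21.8% and 21.2% of all genes, with a median of −0.16. MRPL47 (−0.92, SE 0.14, edgeR adjusted p = 2.25e-05), MRPL32 (−0.87, edgeR adjusted p = 4.28e-05) and MRPS22 (−0.99, edgeR adjusted p = 9.52e-05) had the smallest adjusted p among those lower with a mean of at least 10 CPM. MRPL32, which is known to be cleaved by the m-AAA protease on import, was at 27.7, 23.1 and 24.2 CPM in Ctrl and 16.15, 13.69 and 11.03 CPM in NaAsO2. MRPS18C fell by 1.47 on the log2 scale (edgeR adjusted p = 5.39e-05).

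Among the 8 that were higher, MRPL49 was at 28.5, 32.7 and 31.7 CPM in Ctrl and 51.3, 49.1 and 53.0 CPM in NaAsO2, with no overlap (log2 fold change 0.72, edgeR adjusted p = 0.000672). Its soluble level was 51.4, 72.6 and 58.7 CPM in Ctrl and 84.3, 72.2 and 84.1 CPM in NaAsO2. MRPS26 (1.47), MRPL44 (0.72), a protein with a ribonuclease III fold, and MRPL30 (1.11) were higher as well. Without replicate 3 of the NaAsO2 insoluble fraction, 5 members were higher, with 22.3% of all genes, of which MRPL34, MRPL44, MRPL49 and MRPS26 had also been higher with it, and MRPS26 was at 0.74, MRPL44 at 0.42 (edgeR adjusted p = 0.0476) and MRPL30 at −0.03 (edgeR adjusted p = 0.893). The number of lower members was 28 without it, of which 20 were among the 21, against 20.3% of all genes.

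With RK-33 alone, 0 members of the soluble fraction passed edgeR's quasi-likelihood test against Ctrl (5 with an unadjusted p under 0.05, which 17.6% of all genes had, and 1 lower in DESeq2), against 2.09% higher and 3.24% lower among all genes. In the insoluble fraction, 13 members were lower and 0 higher, against 8.19% and 5.71% of all genes, with a median of −0.33. They were MRPL15, MRPL22, MRPL28, MRPL32, MRPL39, MRPL40, MRPL42, MRPL47, MRPL51, MRPS9, MRPS22, MRPS30 and MRPS35. MRPL47 was at 11.4, 8.36 and 10.3 CPM, below its 15.9, 20.2 and 15.5 CPM in Ctrl (log2 fold change −0.78, SE 0.14, edgeR adjusted p = 0.000411). MRPL22, at the wall of the peptide tunnel, fell by 0.92 (edgeR adjusted p = 0.000883) and MRPS9 by 0.82 (edgeR adjusted p = 0.00959). Leaving out replicate 3 of the NaAsO2 insoluble fraction, the same 13 and 13 others were lower, with 13.7% of all genes, and without replicate 2 of the RK-33 insoluble fraction there were 4.

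Combo was compared with NaAsO2 in each fraction. In the soluble fraction, 2 members were lower and 0 higher, against 1.67% and 4.79% of all genes, namely MRPS18C (−0.75) and MRPL9 (−0.43, edgeR adjusted p = 0.0447). MRPS18C was at 11.9, 11.4 and 11.7 CPM in Combo, below its 19.9, 18.9 and 20.3 CPM in NaAsO2. The median was −0.31, and −0.27 relative to the median of all genes. Of 77 members, 73 were negative, for which the share of all genes is not given here. Without replicate 3 of the NaAsO2 insoluble fraction, 19 were lower and 1 higher, with 6.75% and 10.8% of all genes.

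In the insoluble fraction, 5 members were lower and 1 was higher in Combo, against 6.9% and 6.88% of all genes. The 5 were MRPS2 (−0.76), MRPS16 (−0.62), MRPL57 (−0.65), MRPS34 (−0.81) and MRPL46 (−1.41), and none of them was called without replicate 3 of the NaAsO2 insoluble fraction. In its absence 4 others, MRPL3, MRPL10, MRPL49 and MRPS10, were called lower, for which the share of all genes is not given here. MRPS2 was at 13.7, 16.1 and 33.4 CPM in NaAsO2 and 12.9, 12.6 and 11.4 CPM in Combo, and MRPS34 at 19.35, 22.04 and 53.37 CPM and 18.2, 14.8 and 20.4 CPM. Both genes had the highest of these values in that library. The member that was higher was MRPS6 (0.77), at 6.26, 5.62 and 2.49 CPM in NaAsO2 and 10.4, 8.92 and 5.99 CPM in Combo, which overlap.

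Introns are mostly removed before export, and intron counts were listed for 77 members. As % of exon plus intron counts, those of the members were, in Ctrl, 14.5 ± 2.67 for the soluble and 29.8 ± 2.48 for the insoluble fraction (SD, n = 3). In NaAsO2 they were 7.44 ± 0.989 and 14.6 ± 2.94, in RK-33 12.8 ± 3.53 and 32.0 ± 1.903, and in Combo 9.91 ± 1.69 and 16.2 ± 1.96. The insoluble libraries were above the soluble ones in every treatment without overlap, and after NaAsO2 each fraction was lower than in Ctrl without overlap. Over all genes, the soluble and insoluble percentages were 20.6 and 33.4 in Ctrl, 15.8 and 21.4 in NaAsO2, 17.9 and 35.8 in RK-33 and 21.99 and 27.5 in Combo. The soluble mean in Combo was below that in Ctrl for the members, with overlapping libraries, and above it for all genes. With 3 libraries a group, no two-sided exact permutation test of 2 groups can reach 0.05. In CPM of exon plus intron counts, members had 386 CPM on introns in soluble and 409 in insoluble libraries of Ctrl, but 2295 and 965 CPM on exons. In NaAsO2 these were 213 and 175 CPM on introns and 2671 and 1025 CPM on exons. Between the fractions of Ctrl, the CPM on exons thus differed more than the CPM on introns. These CPM are relative to each library, and the source of the difference in percentage was not tested. Introns were counted without regard to strand, and the part of RNA from overlapping genes was not tested. Of 394 circRNAs listed, 0 come from a member.

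The mRNAs of the members are short. The canonical transcripts had a median of 1260 bases over 77 members and of 3486 bases over 13441 protein-coding genes tested, with 48.0% and 48.5% GC. Among all coding genes, long transcripts had the higher log2 fold changes, with a Pearson correlation between log2 length and fraction effect of 0.51 in Ctrl, 0.53 in NaAsO2, 0.60 in RK-33 and 0.61 in Combo, while within the members it was 0.18, 0.14, 0.40 and 0.29. Without replicate 3 of the insoluble fraction, the values in NaAsO2 were 0.63 over all coding genes and 0.35 within the members. These are correlations across genes of the same libraries. Of the members, 62 fell into the shortest length quartile (192 to 2149 bases), where their median was −1.01 in Ctrl, −1.53 in NaAsO2, −1.44 in RK-33 and −1.27 in Combo, against −0.64, −0.76, −0.91 and −0.76 over all 3364 coding genes of this quartile. With that replicate left out, the medians in NaAsO2 were −1.56 and −0.92. A trend with length was then removed from each library, for which the merged exon length of a gene was used and not that of the canonical transcript. After this, 60 members were lower in Ctrl (median −0.80), 64 in NaAsO2 (−1.15), 73 in RK-33 (−1.08) and 67 in Combo (−0.97), against 25.3%, 27.4%, 28% and 25.7% of all genes.

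**Figure D5:**
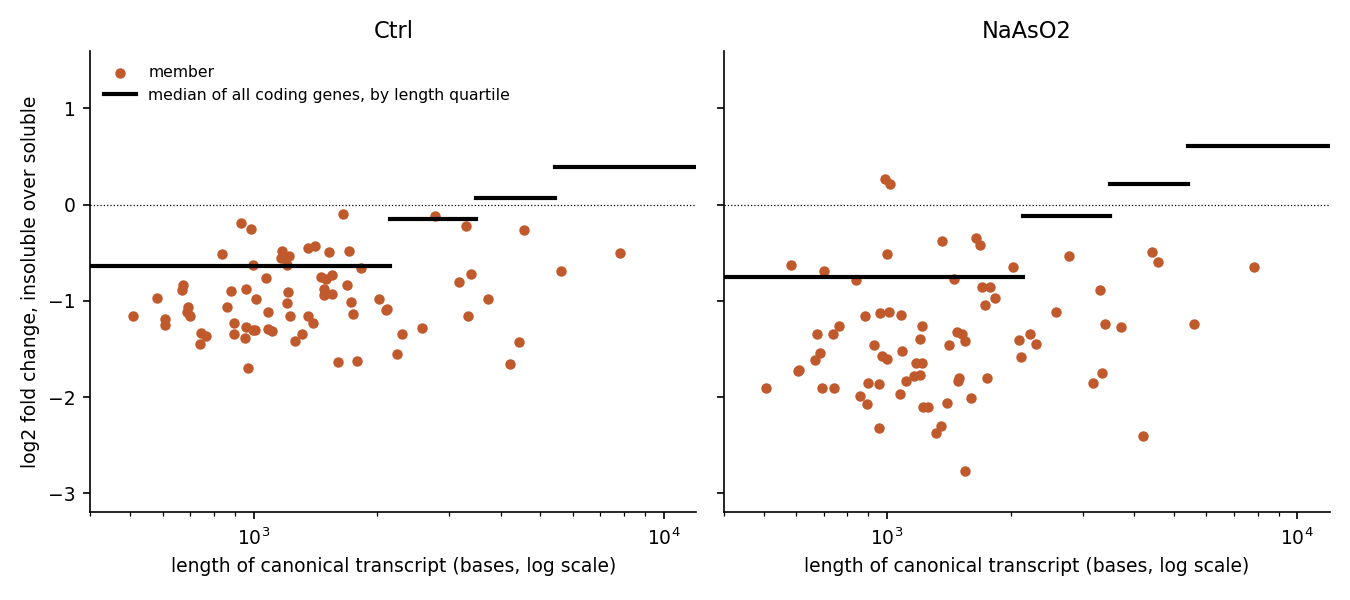
Length of the canonical transcript (bases, log scale) against the log2 fold change, insoluble over soluble, of the members (points) in Ctrl and NaAsO2, with the median of all coding genes in each length quartile (lines, cut at the axis limits). In the shortest quartile the members have medians of −1.01 and −1.53, and all coding genes −0.64 and −0.76.

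Members also differed in how much of the annotation lies outside the canonical transcript. Merged exons were 13.6 times as long as that transcript in MRPS22, 8.80 times in MRPS27, 6.49 times in MRPL46 and 4.96 times in MRPS5. Across 77 members the log2 of this ratio had a Pearson correlation with the fraction effect of 0.36 in Ctrl and 0.33 in RK-33, and of 0.05 in NaAsO2 and 0.06 in Combo. MRPS27 and MRPS5 had a fraction effect near 0 in Ctrl, and whether reads outside the canonical transcript take part in this was not tested.

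Other mRNAs of the same system are set beside the members by counts and medians, in the order Ctrl, NaAsO2, RK-33 and Combo. Of 39 mitochondrial translation and ribosome assembly factors, 11, 19, 20 and 16 were lower in the insoluble fraction and 5, 6, 5 and 3 higher, with medians of −0.17, −0.37, −0.35 and −0.29. Of the 5 tested mitoribosomal proteins whose symbol does not start with MRP (DAP3, AURKAIP1, CHCHD1, PTCD3 and GADD45GIP1), 3, 4, 4 and 3 were lower, with medians of −0.36, −1.09, −1.29 and −0.99. Nuclear-encoded subunits of the respiratory chain, which join the products of the mitochondrial ribosome, were lower in 60, 67, 68 and 68 of 78 cases, with medians of −1.23, −2.05, −1.69 and −1.56. Of 87 cytosolic ribosomal proteins, 82, 85, 85 and 83 were lower, with medians of −1.28, −2.19, −1.75 and −1.64. The median transcript lengths were 781 bases for the respiratory chain and 785 bases for the cytosolic ribosomal proteins, both shorter than the 1260 bases of the members. The fraction effect in NaAsO2 was more negative than in Ctrl for 53 cytosolic ribosomal proteins (median −0.85), 44 respiratory chain subunits (−0.74) and 12 factors (−0.27), beside the 24 members (−0.50). With replicate 3 of the NaAsO2 insoluble fraction left out, these were 73, 55 and 13, beside 35 members.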

How the data were processed

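Libraries of rRNA-depleted RNA were prepared with a directional kit and sequenced from both ends. The authors aligned the reads with STAR 2.7.2b to GRCh38.p13 and deposited raw counts of fragments on the exons and, apart, on the introns (overlap of at least 25 bases) of the genes of GENCODE release 40, counted with featureCounts 1.5.3 without strand. The exon counts of all 24 libraries were fitted in 8 groups with edgeR 4.0.16 (R 4.3.3), after TMM scaling and a filter at a mean of 1 CPM over the libraries, and tested with the quasi-likelihood test, which replaces the glmLRT of the study's methods. P-values were Benjamini-Hochberg adjusted over 17666 genes, and adjusted p under 0.05 was called. CPM values are TMM-scaled. Alternatives (DESeq2 1.42.0 among them) were run on the same counts. The script was tested on simulated counts. Python 3.11.15, numpy 2.4.6, pandas 2.3.3 and matplotlib 3.10.9 served for summaries. Transcript lengths and GC content came from GENCODE release 44 of the same assembly, for 77 members.

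The members and lists were chosen with earlier results of these data known. Named were, for each comparison, the 3 members with the smallest adjusted p in each direction, the 3 highest and lowest fraction effects (mean of at least 10 CPM), the highest and lowest levels and the MRPS18 paralogs. Other members were named after their values were seen. Libraries of a treatment with the same replicate number were taken as 1 lysate, which the labels do not state. Their deviations from the group means correlated by more than 0.1 in 1 of 12 lysates, and a fit with the number as a block was an alternative.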

Additional observations from a re-analysis of the deposited data

Results flagged for a closer look

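Results are given here where the fraction effect of a gene differed between treatments by the test of that difference. For NaAsO2 against Ctrl, 24 of 77 members had a more negative log2 fold change, insoluble over soluble, after NaAsO2 (edgeR's quasi-likelihood test, adjusted p under 0.05). Of all genes, 11.4% did. The members among them that are described above had differences of −1.14 (MRPL47), −1.84 (MRPS18C), −1.23 (MRPS18A), −0.84 (MRPS18B), −1.15 (MRPS22), −1.20 (MRPL39) and −1.16 (MRPL1), and when replicate 3 of the NaAsO2 insoluble fraction was left out these were −1.02, −1.75, −1.08, −0.66, −0.94, −0.88 and −0.89 in the same order. For RK-33 against Ctrl, 1 of 77 members passed, MRPL28, with a difference of −0.99. Of all genes, 1.58% had a more negative fraction effect in this comparison, so that the count of members was near that share. MRPL28 was also among the 24. The comparisons share the Ctrl libraries. Single values within a group of 3 were not tested for outliers.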

How the results depend on the processing

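In all 4 treatments the median of the members stayed lower in the insoluble fraction under every alternative that gives a median. These were other scalings (RLE factors, library size alone), other tests (glmLRT, DESeq2), no filter or a minimum of 10 CPM, exon plus intron counts, the compared groups alone, a replicate block, removal of the length trend (merged exon length) and each of 24 libraries left out. A 2-fold minimum was applied to the counts only. Relative to the median of all genes, and with the length trend kept, the range was −1.10 to −0.89 in Ctrl, −1.53 to −1.39 in NaAsO2, −1.59 to −1.31 in RK-33 and −1.32 to −1.19 in Combo on the log2 scale. For NaAsO2 minus Ctrl, the difference in fraction effect was −0.58 to −0.37 on the same scale. The median of all genes in this comparison itself moved by 0.102 with library size alone and by 0.14 with the compared groups alone, in the soluble comparison of NaAsO2 and Ctrl by −0.18, for RK-33 minus Ctrl by 0.13 and in the soluble comparison of Combo and NaAsO2 by 0.11 with library size alone. Counts of the treatment comparisons depended on the choice, and the cause was not tested. For most alternatives the share of all genes called is not given here. A change in a count below can thus not be told apart from a change in the calls over all genes. For instance, 6.31% of all genes were higher in soluble NaAsO2 than in Ctrl, and 15.3% without NaAsO2 insoluble 3. Libraries are named here by treatment, fraction and replicate.

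For Ctrl insoluble against soluble, the number higher, 0, was 1 with exon plus intron counts. The number lower, 67, was 38 with a 2-fold minimum. The median, −0.98, was −1.07 with library size alone, −1.09 with no filter, −1.12 with exon plus intron counts, −0.80 with the length trend removed, −0.79 with the length trend removed and a replicate block and −1.05 to −0.91 with one library left out. For NaAsO2 insoluble against soluble, the median, −1.45, was −1.31 with a minimum of 10 CPM, −1.15 with the length trend removed, −1.17 with the length trend removed and a replicate block and −1.52 to −1.31 with one library left out. For RK-33 insoluble against soluble, the number higher, 0, was 1 with exon plus intron counts. The median, −1.44, was −1.08 with the length trend removed (without or with a replicate block). For Combo insoluble against soluble, the median, −1.26, was −1.23 with RLE factors and DESeq2, −1.32 with no filter, −1.21 with a minimum of 10 CPM and exon plus intron counts, −0.97 with the length trend removed (without or with a replicate block) and −1.32 to −1.23 with one library left out. For the difference in fraction effect, NaAsO2 minus Ctrl, the number higher, 0, was 1 with RLE factors, library size alone, glmLRT, DESeq2, a minimum of 10 CPM, exon plus intron counts, the length trend removed (without or with a replicate block), 2 with no filter and 0 to 4 with one library left out (4 without NaAsO2 insoluble 1, 2 without NaAsO2 insoluble 2, 1 without RK-33 insoluble 3 or Combo soluble 1 or Combo soluble 2 or Combo soluble 3 or Combo insoluble 3). The number lower, 24, was 10 with a 2-fold minimum and the compared groups alone, 15 with no filter and 15 to 35 with one library left out (15 without NaAsO2 soluble 1). The median, −0.50, was −0.35 with exon plus intron counts and the compared groups alone and −0.58 to −0.25 with one library left out. For the difference in fraction effect, RK-33 minus Ctrl, the number lower, 1, was 0 with a 2-fold minimum and exon plus intron counts, 2 with glmLRT, a minimum of 10 CPM and the length trend removed, 5 with DESeq2, 16 with the compared groups alone and 0 to 14 with one library left out (14 without NaAsO2 insoluble 3). For the difference in fraction effect, Combo minus NaAsO2, the number higher, 0, was 0 to 1 with one library left out (1 without NaAsO2 insoluble 1). The number lower, 0, was 0 to 1 with one library left out (1 without NaAsO2 insoluble 1). The median, 0.22, was 0.0517 to 0.26 with one library left out. For the soluble fraction, NaAsO2 minus Ctrl, the number higher, 8, was 0 with a 2-fold minimum, 2 with library size alone, 17 with DESeq2, 4 with no filter, 5 with a minimum of 10 CPM, 44 with the compared groups alone and 0 to 34 with one library left out (0 without Ctrl soluble 1 or NaAsO2 soluble 3, 3 without Ctrl soluble 3, 2 without NaAsO2 soluble 1, 34 without NaAsO2 insoluble 3, 4 without RK-33 insoluble 3 or Combo soluble 1 or Combo soluble 2 or Combo soluble 3). The number lower, 0, was 1 with library size alone, 2 with the compared groups alone and 0 to 1 with one library left out (1 without NaAsO2 insoluble 3). The median, 0.34, was 0.15 with library size alone. For the insoluble fraction, NaAsO2 minus Ctrl, the number higher, 8, was 2 with a 2-fold minimum, 13 with no filter, 16 with exon plus intron counts, 1 with the compared groups alone and 5 to 15 with one library left out (5 without Ctrl insoluble 1 or Ctrl insoluble 3 or NaAsO2 insoluble 3, 15 without NaAsO2 insoluble 1, 13 without NaAsO2 insoluble 2). The number lower, 21, was 1 with a 2-fold minimum, 11 with no filter and 2 with the compared groups alone. For the soluble fraction, RK-33 minus Ctrl, the number higher, 0, was 1 with no filter and 0 to 3 with one library left out (3 without NaAsO2 insoluble 3). The number lower, 0, was 1 with DESeq2, 3 with the compared groups alone and 0 to 3 with one library left out (3 without NaAsO2 insoluble 3). For the insoluble fraction, RK-33 minus Ctrl, the number higher, 0, was 1 with exon plus intron counts. The number lower, 13, was 0 with a 2-fold minimum, 8 with no filter, 39 with the compared groups alone and 4 to 26 with one library left out (8 without Ctrl insoluble 1, 6 without Ctrl insoluble 2 or RK-33 insoluble 3, 26 without NaAsO2 insoluble 3, 4 without RK-33 insoluble 2). For the soluble fraction, Combo minus NaAsO2, the number higher, 0, was 1 with library size alone and the compared groups alone and 0 to 1 with one library left out (1 without NaAsO2 insoluble 3). The number lower, 2, was 0 with a 2-fold minimum, library size alone and a minimum of 10 CPM, 9 with glmLRT, 13 with DESeq2, 1 with no filter, 17 with exon plus intron counts, 44 with the compared groups alone, 6 with the length trend removed (without or with a replicate block) and 0 to 19 with one library left out (19 without NaAsO2 insoluble 3). For the insoluble fraction, Combo minus NaAsO2, the number higher, 1, was 0 with a 2-fold minimum, a minimum of 10 CPM and the compared groups alone and 0 to 3 with one library left out (3 without NaAsO2 insoluble 3, 0 without Combo insoluble 1 or Combo insoluble 2). The number lower, 5, was 1 with a 2-fold minimum, 10 with RLE factors and the length trend removed and a replicate block, 9 with glmLRT, 13 with DESeq2, 11 with no filter, 15 with exon plus intron counts, 0 with the compared groups alone, 8 with the length trend removed and 0 to 21 with one library left out (21 without NaAsO2 insoluble 1, 13 without NaAsO2 insoluble 2, 8 without RK-33 insoluble 3 or Combo soluble 1 or Combo soluble 3, 0 without Combo insoluble 1 or Combo insoluble 2, 11 without Combo insoluble 3). For Ctrl, the ratio of the mean shares, 0.502, was 0.420 with exon plus intron counts. For NaAsO2, the ratio of the mean shares, 0.412, was 0.372 with RN7SL genes left out, 0.384 with exon plus intron counts and 0.3995 to 0.424 with one library left out. For RK-33, the ratio of the mean shares, 0.432, was 0.385 with RN7SL genes left out and 0.338 with exon plus intron counts. For Combo, the ratio of the mean shares, 0.445, was 0.408 with RN7SL genes left out and 0.413 with exon plus intron counts.

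With the replicate number as a block, the numbers lower in the insoluble fraction were 67, 73, 72 and 73 in Ctrl, NaAsO2, RK-33 and Combo, with medians of −0.997, −1.49, −1.44 and −1.26, 22 members had a more negative fraction effect in NaAsO2 than in Ctrl, and the block moved no count by more than 1.5 times. The numbers do not clearly pair the fractions, since the deviations of the 2 libraries of a lysate correlated by −0.288 to 0.110 and 4 of 12 soluble libraries correlated best with their own lysate. Among the named genes, 4 results changed sign with a call on either side, each without NaAsO2 insoluble 3, with ranges over the libraries left out of −0.55 to 0.54 for MRPS26 and −0.64 to 0.66 for MRPL46 (NaAsO2 insoluble against soluble), −0.73 to 0.84 for MRPL41 (difference in fraction effect, NaAsO2 minus Ctrl) and −0.0278 to 1.52 for MRPL30 (NaAsO2 and Ctrl, insoluble fraction). The depth limits members such as MRPS24, which had 2 to 36 counts in a library.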
